A study of Mus musculus with 9 samples.

Results

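The transcripts described here are those of 7 genes of antibody transport and of the cells that make antibody, measured in the mouse mammary gland on lactation day 2. The genes were chosen by name: Pigr, Igj, Ccl28, Ccr10, Fcgrt, Prdm1 and Sdc1, with every probe that the array design gives under one of these names. This gave 8 probes of the 41174 on the array, 1 for each gene and 2 for Igj, whose current symbol is Jchain. RNA was from mammary gland number 4, with 4 wild type (WT) and 5 hNAG-1 samples and 1 array for each sample. The methods of the study place its gene expression and protein samples after the 4th litter of the dams. Their microarray part names lactation day 2 and no litter. The labels give the strain background as C57BL/7 for all samples, a spelling that differs from the strain name in the text of the study. The hNAG-1 mice carry a transgene for human NAG-1 (the cytokine GDF15) that is expressed ubiquitously, so it is not limited to the mammary gland. The labels do not name the transgenic line of a sample, and the study kept more than 1 line. The transgene itself was not analysed here, since the array is of mouse sequences.

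Milk antibody reaches the pup by a chain of steps. Chemokines of the epithelium such as CCL28 draw antibody-secreting cells that carry CCR10 into the gland, and these plasma cells join IgA or IgM with the J chain encoded by Igj. The polymeric immunoglobulin receptor, encoded by Pigr, binds J chain-containing antibody at the basal side of the secretory epithelium, carries it across the cell and is cut at the apical side, which leaves its outer part on the antibody as secretory component. IgG is carried by another receptor, FcRn, whose heavy chain is encoded by Fcgrt. Whether FcRn carries IgG into milk or out of it was not tested. Prdm1 encodes BLIMP1, the transcription factor that drives plasma cell differentiation, and Sdc1 encodes syndecan 1 (CD138), a proteoglycan that is a plasma cell marker but is also made by epithelium. The gland was sampled early in lactation, and the comparison asks whether the transcripts of these steps differed between WT and hNAG-1 dams.

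The sequences below are those that the array reads for the main steps, printed 5′ to 3′ and in lower case. They are given because each value below is the brightness of 1 short oligonucleotide and not of a whole transcript. The probes are 60 bases long, and the coordinates are those of the scanner files on build mm7. For Pigr and Igj the last 30 bases are shown. The Pigr probe lies at chr1:130755546-130755605 on the plus strand. The Igj probes lie at chr5:88461523-88461582 and chr5:88461353-88461412 on the minus strand, with starts 170 bases apart, so they read different stretches of the same transcript. The Ccl28 probe is placed by the files on unassigned sequence, and the Fcgrt probe lies at chr7:41270914-41270973 on the minus strand.
Pigr A_51_P239737: tcaagagtgcctagtgagatagactagcgt
Igj A_51_P150705: gttcaagagttcattttccagtgtttaaaa
Igj A_51_P150710: gtgtagagaaaacagccaatgaacacagga
Ccl28 A_51_P276560: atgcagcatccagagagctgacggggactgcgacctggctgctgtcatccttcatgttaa
Fcgrt A_51_P161890: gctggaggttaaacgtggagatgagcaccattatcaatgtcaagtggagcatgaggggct

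The Ccr10, Prdm1 and Sdc1 probes lie at chr11:101283131-101283190, chr10:44250799-44250858 and chr12:8818810-8818869 on mm7, the last of them on the plus strand. The Ccr10 probe was designed on a cDNA clone whose description names a different chemokine receptor, so its assignment to Ccr10 rests on the gene name in the files alone. RefSeq promoter sequences on build GRCm38.p6 were at hand for 6 of the 7 genes and not for Ccr10. The 250 bases before the start of Pigr and Jchain are shown because these genes encode the transporter and a part of its cargo and had very different spreads between arrays. Capitals mark matches, on either strand, to the letters CACGTG (an E-box, bound by USF factors), TTCNNNGAA (a STAT site) and GAAANNGAA (the core of an IRF site). The windows are chr1:130826434-130826683 on the plus strand for Pigr and chr5:88527898-88528147 on the minus strand for Jchain.
Pigr promoter: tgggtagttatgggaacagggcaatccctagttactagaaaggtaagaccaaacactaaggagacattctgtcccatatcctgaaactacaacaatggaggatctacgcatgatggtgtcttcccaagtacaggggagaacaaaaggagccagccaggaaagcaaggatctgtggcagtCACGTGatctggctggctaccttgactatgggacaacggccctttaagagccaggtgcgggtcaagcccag
Jchain promoter: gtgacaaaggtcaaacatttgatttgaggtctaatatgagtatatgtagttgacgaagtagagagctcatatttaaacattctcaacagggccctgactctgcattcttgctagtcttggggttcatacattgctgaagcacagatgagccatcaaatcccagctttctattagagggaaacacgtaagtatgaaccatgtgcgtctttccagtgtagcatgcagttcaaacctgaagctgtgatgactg

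The Pigr window held 1 match, an E-box that begins 71 bases before the start, and the windows of the other 5 genes held no match to any of the 3 motifs. The E-box was found in 6.0% of all 32851 windows of this length, the STAT letters in 7.0% and the IRF letters in 7.1%. A match describes the letters of the window and does not show that a factor binds there.

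Of the 8 probes, 0 had an unadjusted limma p under 0.05, against 5.61% of all probes, and 0 had an adjusted p under 0.05, against 0.00243% of all probes. The lowest adjusted p of the 8 was 0.661. The genotypes overlapped for every one of the 8 probes, while 1.35% of all probes had genotypes that did not overlap. The exact permutation p-values, two-sided over 126 splits with a smallest possible value of 0.00794, ranged from 0.222 to 0.611. What separated the genes was the spread between dams: the Igj probes ranged over 95.1-fold and 155-fold across the 9 arrays, whereas the Pigr probe ranged over 1.74-fold.

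**Figure D1:**
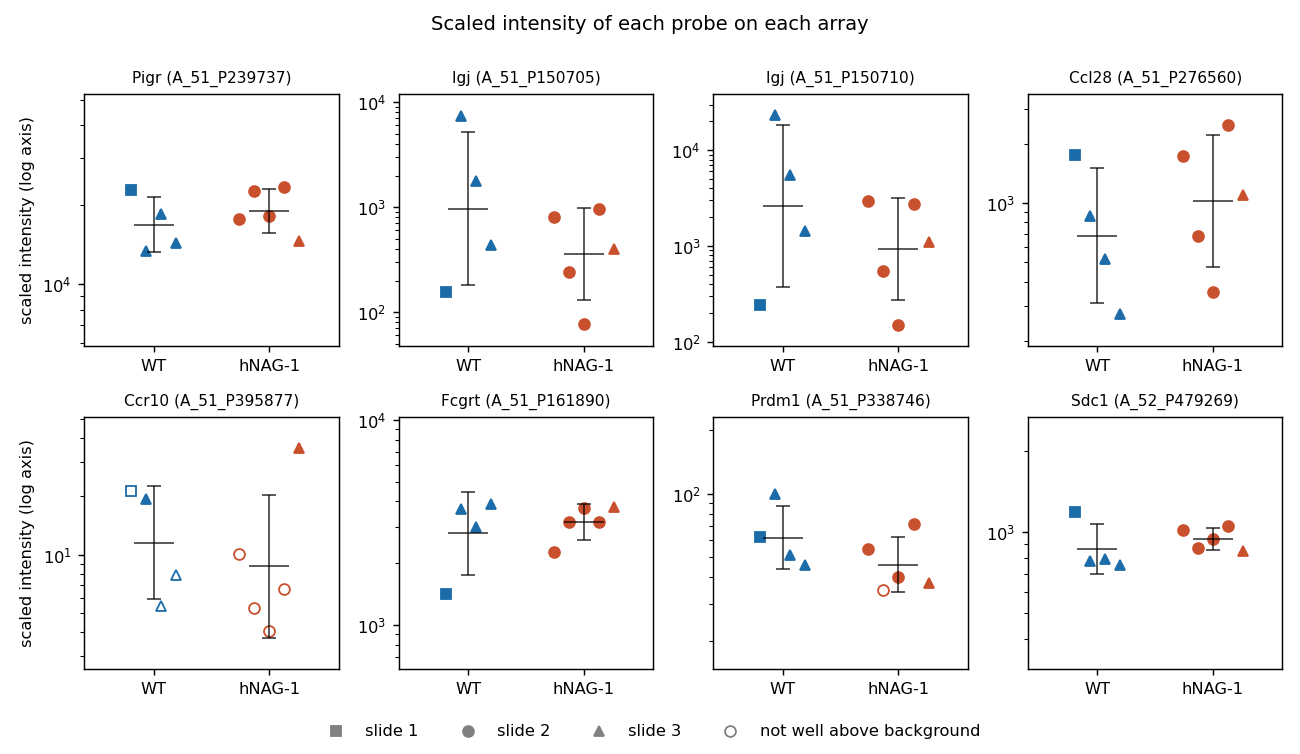
Scaled intensity (log axis) of each of the 8 probes on each of the 9 arrays, by genotype; marker shape gives the slide, open markers are not well above background, and the bar and whiskers are the mean and SD of the log2 values. The genotypes overlap in every panel, the Igj probes spread over 95.1-fold and 155-fold, and the Pigr probe spreads over 1.74-fold.

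The transporter Pigr was bright on every array. Scaled intensities, which put the 75th percentile of every array at the same value, were 22697, 13418, 18418 and 14379 in WT and 17635, 22506, 18228, 23360 and 14622 in hNAG-1. The highest value was in hNAG-1 4 and the lowest in WT 2, and each genotype held both high and low arrays. The WT mean was 17228 ± 4241 (SD, n = 4), and that of hNAG-1 was 19270 ± 3625 (SD, n = 5). As a log2 difference, hNAG-1 minus WT, the change was 0.17 (SE 0.21, 95% interval -0.31 to 0.65), with an adjusted p = 0.787 in limma. On the linear scale the interval ran from 0.809-fold to 1.57-fold. Only slide 3 held both genotypes, and within it the log2 difference was -0.06.

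The J chain transcript Igj varied more than nearly any other transcript among those not dim in both genotypes. At probe A_51_P150710, scaled intensities were 243, 23404, 5570 and 1439 in WT and 2924, 552, 151, 2717 and 1093 in hNAG-1. WT 2 was the brightest array, and WT 1 lay below 4 of the 5 hNAG-1 arrays, so the WT values alone spanned 96.4-fold and the hNAG-1 values lay inside that span save for hNAG-1 3. The log2 difference was -1.47 (SE 1.33, 95% interval -4.46 to 1.52), with an adjusted p = 0.703 in limma.

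The other Igj probe, A_51_P150705, read 154, 7405, 1791 and 432 in WT and 812, 243, 77.9, 965 and 399 in hNAG-1. The arrays fell in almost the same order at both probes, with Pearson r = 0.99 and Spearman rho = 0.98 over the 9 arrays, given as a description since both read the same RNA. The log2 difference at this probe was -1.44 (SE 1.14, 95% interval -3.99 to 1.12), with an adjusted p = 0.664 in limma. The residual SD of the fit was 2.28 at A_51_P150710 and 1.94 at A_51_P150705. These values lay at percentiles 99.9 and 99.7 of the 26762 probes with signal well above background in a genotype. Dimmer probes were left out of this ranking. Single arrays set the size of the difference. Without WT 2 the log2 differences were -0.41 at A_51_P150710 and -0.46 at A_51_P150705, and without WT 1 they were -2.61 and -2.32. Within slide 3, where hNAG-1 5 faces 3 WT arrays, they were -2.39 and -2.16. In bulk tissue, fewer plasma cells and less RNA in each of them cannot be told apart, and this holds for each plasma cell transcript below.

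The chemokine Ccl28 came next in spread, at 9.03-fold. Scaled intensities were 1760, 860, 521 and 274 in WT and 1742, 677, 354, 2475 and 1101 in hNAG-1. The lowest array was WT 4 and the highest hNAG-1 4, and WT 1 and hNAG-1 1 were nearly equal. The WT mean was 854 ± 650 (SD, n = 4) against 1270 ± 851 (SD, n = 5) for hNAG-1. The log2 difference was 0.59 (SE 0.66, 95% interval -0.90 to 2.08), with an adjusted p = 0.766 in limma. Within slide 3 it was 1.15, without WT 4 it was 0.15 and without hNAG-1 4 it was 0.27. The arrays were not in the order seen for Igj: WT 1 was second highest of all arrays for Ccl28 and among the 3 lowest for both Igj probes.

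Ccr10, the receptor for CCL28 on plasma cells, was near the detection limit. Scaled intensities were 21.3, 19.4, 5.47 and 7.83 in WT and 10.1, 5.31, 4.06, 6.67 and 35.3 in hNAG-1. The probe was well above background on WT 2 and hNAG-1 5 alone. The log2 difference was -0.40 (SE 0.66), with an adjusted p = 0.845 in limma, and within slide 3, which holds both arrays with a reading above background, it was 1.91.

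Fcgrt, the heavy chain of the IgG receptor FcRn, read 1414, 3689, 2994 and 3879 in WT and 2273, 3169, 3711, 3184 and 3745 in hNAG-1. WT 1 was lowest, hNAG-1 1 next, and the other arrays lay close together. The log2 difference was 0.18 (SE 0.31, 95% interval -0.51 to 0.88), with an adjusted p = 0.847 in limma. Without WT 1 it was -0.14.

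The plasma cell regulator Prdm1 was dim, with 62.1, 99.6, 51.1 and 45.8 in WT and 54.3, 35.0, 40.3, 71.5 and 37.4 in hNAG-1. The highest values were those of WT 2 and hNAG-1 4, and hNAG-1 2 was not well above background. The log2 difference was -0.42 (SE 0.29, 95% interval -1.08 to 0.23), with an adjusted p = 0.661 in limma, and within slide 3 it was -0.72. Sdc1 read 1190, 780, 792 and 753 in WT and 1019, 869, 939, 1052 and 847 in hNAG-1. WT 1 was the highest array, and the other WT arrays were below all of hNAG-1. The log2 difference of Sdc1 was 0.13 (SE 0.17, 95% interval -0.27 to 0.52), with an adjusted p = 0.810 in limma. WT 2, the brightest array for Igj and Prdm1, was among the lower arrays for Sdc1.

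**Figure D2:**
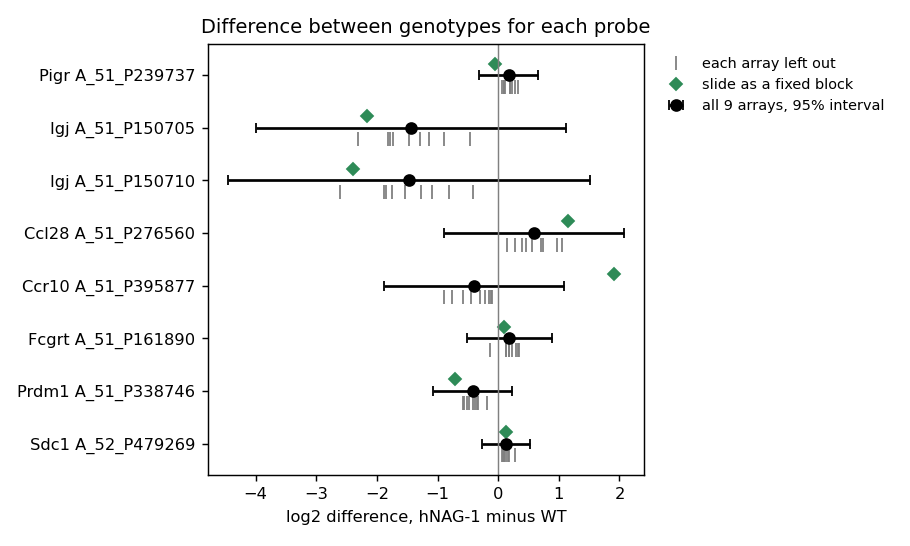
Log2 difference, hNAG-1 minus WT, for each probe: black points and lines are the limma estimate and its 95% interval over 9 arrays, gray ticks leave out 1 array at a time, and green diamonds have slide as a fixed block. Every interval holds 0; the Igj probes move between -2.61 and -0.41 as single arrays are left out, and the Ccr10 (-0.40 to 1.91) and Pigr (0.17 to -0.06) values change sign with slide as a fixed block.

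Other genes of the pathway were described from lists of known function. Of 145 further genes and immunoglobulin probes of these lists, 0 were higher and 5 were lower in hNAG-1 at an unadjusted p under 0.05, against 1.15% and 4.46% of all probes, and 0 passed after adjustment. The split of all probes depended on the scaling and on single arrays: among those below the unadjusted threshold the share higher in hNAG-1 was 20.5% here, 72.4% with median scaling, 58.1% with quantile normalization, 52.6% with another background correction and 2.85% with no scaling. It ranged from 8.09% without hNAG-1 5 to 36.6% without hNAG-1 3. The median log2 difference over all 41174 probes was -0.02.

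Of 19 genes of the plasma cell program, 7 were higher and 12 lower, none with an unadjusted p under 0.05, with a median log2 difference of -0.12 (0.09 with median scaling). Mzb1, a chaperone of antibody-secreting cells and innate-like B cells, had the most negative difference. It read 237, 3376, 265 and 114 in WT and 201, 48.2, 40.4, 524 and 162 in hNAG-1. WT 2 and hNAG-1 4 were the brightest, as for Prdm1, and the log2 difference was -1.63 (SE 1.06, adjusted p = 0.661 in limma). The lymphocyte genes of this list spread widely between arrays, with 35.3-fold for Pou2af1, a coactivator of octamer factors in B cells, 28.8-fold for the receptor Cd27 and 15.6-fold for Tnfrsf17, which encodes BCMA. Irf4, a transcription factor needed for plasma cells, had a log2 difference of -0.78 (SE 0.44, adjusted p = 0.661 in limma) and that of Tnfrsf17 was -0.78 (SE 0.67, adjusted p = 0.688 in limma). The genes of the endoplasmic reticulum on the same list, which the secretory epithelium also uses, ranged less, from 1.35-fold for Sec11c to 2.62-fold for Fkbp11 and 2.63-fold for Derl3. Xbp1, the transcription factor of the secretory program, had the most positive difference of the list, 0.27 on the log2 scale (SE 0.20, adjusted p = 0.661 in limma), and ranged over 1.86-fold.

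The antibody transcripts themselves were read by 43 probes whose array name is that of an immunoglobulin chain, which leaves out immunoglobulin sequences under other names. Of these 43 probes, 42 were lower and 1 higher in hNAG-1. Their median log2 difference was -1.22, with 0 higher and 2 lower below the unadjusted threshold, and none passed adjustment. Signal was well above background on all arrays for 17 of the 43 and on no hNAG-1 array for 3, and with dim probes filtered out the median was -1.52. These probes share much sequence within each chain family and are not independent of each other. Their median range over the 9 arrays was 48.5-fold, against 2.30-fold for all probes. The 3 probes of Igh-6, the mu chain of IgM, had log2 differences from -1.52 to -1.37. The Igh-6 probe at -1.37 was well above background on 1 WT array and on no hNAG-1 array. The 3 probes of Igh-4, the heavy chain of IgG1, had log2 differences from -0.86 to -0.47. The 2 probes of Igh-1a, a heavy chain of IgG2, had -1.68 and -1.43. The 3 probes named Ighg, of the gamma chains, had log2 differences from -2.04 to -0.78. The 8 probes named Igl-V1, of the lambda light chain, had log2 differences from -2.71 to -1.75.

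The most negative difference was that of Igl-V1 A_51_P503756, which read 1143, 71044, 24017 and 1447 in WT and 12269, 160, 157, 6181 and 893 in hNAG-1. As with Igj, WT 2 and WT 3 were high and hNAG-1 2 and hNAG-1 3 low, while hNAG-1 1 and hNAG-1 4 lay above WT 1 and WT 4. The log2 difference of this Igl-V1 probe, -2.71, had an SE of 1.71 (adjusted p = 0.661 in limma). The description of probe A_51_P270661 names an I alpha polypeptide, which does not settle that it reads the IgA heavy chain itself. It ranged over 2.94-fold and had a log2 difference of -0.03 (SE 0.40, adjusted p = 0.985 in limma). The files place 3 probes named Igh-VJ558 near it on chromosome 12 (A_51_P180159, A_51_P187645 and A_51_P509679), and these had log2 differences of -1.11, -1.20 and -1.14 and ranged over 69.7-fold, 58.8-fold and 47.6-fold. Which heavy chain these 4 probes read was not tested. The higher probe, A_52_P655763 of a kappa variable region, had a log2 difference of 1.13 (SE 0.92, adjusted p = 0.672 in limma) and was well above background on 1 WT and 2 hNAG-1 arrays. The median over the 43 probes was -0.46 without WT 2, -0.81 without hNAG-1 3 and -1.97 without WT 1.

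The arrays that stood out for Igj did so for immunoglobulin chains as well. Averaged over the genes of a list as the log2 difference from the mean of all arrays, WT 2 was at 3.86 for Igj and 3.42 for immunoglobulin chains, and hNAG-1 3 was at -3.06 and -2.19. WT 2 was also high in markers of other lymphocytes, at 3.00 for 12 B cell genes and 2.70 for 11 T cell genes. WT 1 was low for Igj (-2.23) and immunoglobulin chains (-1.25) but above the mean for B cell genes (0.77) and T cell genes (0.85). WT 3 was the reverse, at 1.80 for Igj and 1.07 for immunoglobulin chains against -0.52 for B cell genes and -0.44 for T cell genes. In hNAG-1 1, Igj was at 0.76 and immunoglobulin chains at -0.04, against -0.83 for B cell genes and -0.55 for T cell genes. Secretory epithelium genes moved little, between -0.49 in WT 2 and 0.26 in WT 1. Number 4 glands hold an inguinal lymph node, and whether it was removed is not given in the sources used here; the part of lymph node tissue in the Igj values was not tested.

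**Figure D3:**
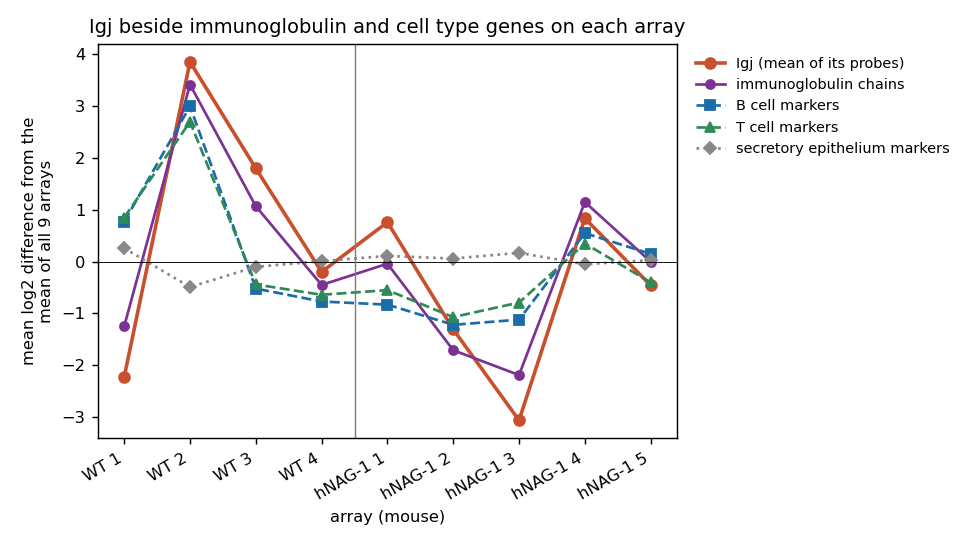
Mean log2 difference from the mean of all 9 arrays for Igj and for 4 lists of genes, on each array; the vertical line separates WT from hNAG-1. Igj and the immunoglobulin chains are both highest in WT 2 (3.86 and 3.42) and lowest in hNAG-1 3 (-3.06 and -2.19), B and T cell genes both lie on the other side of 0 from Igj in WT 1, WT 3 and hNAG-1 1, and epithelial genes stay between -0.49 and 0.26.

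All 12 B cell genes were lower in hNAG-1, with a median log2 difference of -1.19. Cd79a, a signaling chain of the B cell receptor complex, had a log2 difference of -1.05 (SE 0.48, adjusted p = 0.661 in limma). Pax5, the B cell identity factor, had the most negative one, -1.77 (SE 1.45, adjusted p = 0.674 in limma), and was well above background on 2 WT arrays and 1 hNAG-1 array, while its other probe was at -0.07. Of the T cell genes 10 were lower and 1 higher, with a median of -1.42. The T cell receptor gene Trac had the most negative log2 difference, -1.76 (SE 1.07, adjusted p = 0.661 in limma). Cd8b1, by name a chain of the CD8 coreceptor, had the only positive one, 0.11 (SE 0.24, adjusted p = 0.887 in limma). Its probe is placed on chromosome 5 and that of Cd8a on chromosome 6. The Cd8b1 probe ranged over 2.11-fold, against 43.9-fold for Cd8a, and whether it reads Cd8b1 was not tested. Another probe of Cd8b1 is not reported here. Cd3e, a chain of the T cell receptor complex, was at -0.17 (SE 0.24, adjusted p = 0.817 in limma), with its other probe at -0.67. In each of these lists 1 gene, Cr2 or Cd2, was lower at an unadjusted p under 0.05, against 4.46% of all probes, and 0 passed after adjustment. The other Cr2 probe, at -1.91, did not pass (unadjusted p = 0.219 in limma). Both medians were -0.39 without WT 2.

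The genes that bring plasma cells into tissue and hold them there were 14, of which 2 were higher and 12 lower, none with an unadjusted p under 0.05. Their median log2 difference was -0.63, and -0.16 without WT 2. Itgb7, the beta chain of the gut-homing integrin, was at -1.14 (SE 0.74, adjusted p = 0.661 in limma), and its ligand Madcam1 was at 0.44 (SE 0.32, adjusted p = 0.661 in limma). Itgb7 is carried by lymphocytes in general, and Itgb7 was brightest in WT 2 at 6692, with hNAG-1 4 next at 1237. Cxcl12, a ligand that retains plasma cells, was at -0.10 (SE 0.33, adjusted p = 0.931 in limma).

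Of 15 genes for IgA class switching and plasma cell survival, 2 were lower with an unadjusted p under 0.05 and 0 were higher, with a median log2 difference of -0.06 (0.08 without WT 2, -0.24 without WT 1 and -0.26 with slide as a fixed block). Aldh1a2, an enzyme that makes retinoic acid, read 215, 183, 176 and 129 in WT and 115, 98.2, 79.1, 119 and 135 in hNAG-1. WT 4 was the 1 WT array inside the range of hNAG-1, and the log2 difference was -0.69 (SE 0.21, adjusted p = 0.661 in limma). Cd40lg had the most positive difference but was not well above background on any array. The survival factors Tnfsf13b (BAFF) and Tnfsf13 (APRIL) had log2 differences of -0.09 (SE 0.35, adjusted p = 0.943 in limma) and 0.09 (SE 0.16, adjusted p = 0.852 in limma). The other Tnfsf13b probe was at -0.60, with an unadjusted p = 0.036 and an adjusted p = 0.661 in limma, so the probes of this gene fall on different sides of the unadjusted threshold.

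Around FcRn, 11 Fc receptor and partner genes had a median log2 difference of 0.03, with 1 lower at an unadjusted p under 0.05. The median was -0.52 with slide as a fixed block and on slide 3 alone, and from -0.26 without hNAG-1 4 to 0.14 without WT 2. That gene was Fcamr, a receptor for IgA and IgM, which read 96.9, 101, 131 and 102 in WT and 77.9, 53.3, 60.1, 66.7 and 113 in hNAG-1. Only hNAG-1 5 lay within the WT range, and the log2 difference was -0.58 (SE 0.23, adjusted p = 0.661 in limma). B2m, the light chain of FcRn and of class I molecules, was at -0.23 (SE 0.28, adjusted p = 0.788 in limma). The extremes of this list were the low-affinity IgE receptor Fcer2a at -1.62 (SE 1.08, adjusted p = 0.661 in limma), which was not well above background on hNAG-1 2 and hNAG-1 3, and the IgG receptor Fcgr4 at 0.47 (SE 0.56, adjusted p = 0.781 in limma).

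The machinery that carries the Pigr cargo across the cell ranged little between arrays. Of 19 genes of apical transcytosis, 12 were higher and 7 lower, none with an unadjusted p under 0.05, with a median log2 difference of 0.05 (-0.09 with no scaling, 0.27 with median scaling, and 0.25 with slide as a fixed block and on slide 3 alone) and extremes of -0.44 for Rab3b and 0.25 for Rab3d, small GTPases of regulated secretion, although the other Rab3b probe was at 0.27. Their median range over the arrays was 1.66-fold. The 24 genes that regulate Pigr transcription split into 12 higher and 12 lower, none with an unadjusted p under 0.05, and the most negative log2 difference was -0.42 for Relb, a subunit of NF-kB. Their median was 0.00, and it was 0.22 with median scaling, -0.15 with no scaling and -0.26 with slide as a fixed block. The prolactin receptor Prlr was at -0.11 (SE 0.25, adjusted p = 0.891 in limma), with its other probes at 0.04 and 0.12, and its signal transducer Stat5a at 0.09 (SE 0.30, adjusted p = 0.927 in limma).

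The epithelium that holds these transporters was well measured in all samples, since its 13 marker genes were well above background on every array. Their median log2 difference was 0.12, with 12 higher and 1 lower. At an unadjusted p under 0.05, 1 of the 13 was higher, against 1.15% of all probes. The median was -0.05 without WT 2, -0.03 with no scaling and 0.34 with median scaling. The milk protein Csn2 was at 0.06 (SE 0.22, adjusted p = 0.942 in limma) and the luminal keratins Krt8 and Krt18 at 0.13 each (adjusted p = 0.860 and 0.839 in limma). Muc1, a mucin of the apical membrane, read 2438, 1932, 2467 and 2652 in WT and 2845, 5716, 4038, 3224 and 2849 in hNAG-1. All hNAG-1 arrays were above all WT arrays, as for 1.35% of all probes in either direction, and the log2 difference was 0.61 (SE 0.23, adjusted p = 0.661 in limma). The other Muc1 probe was at 0.54.

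**Figure D4:**
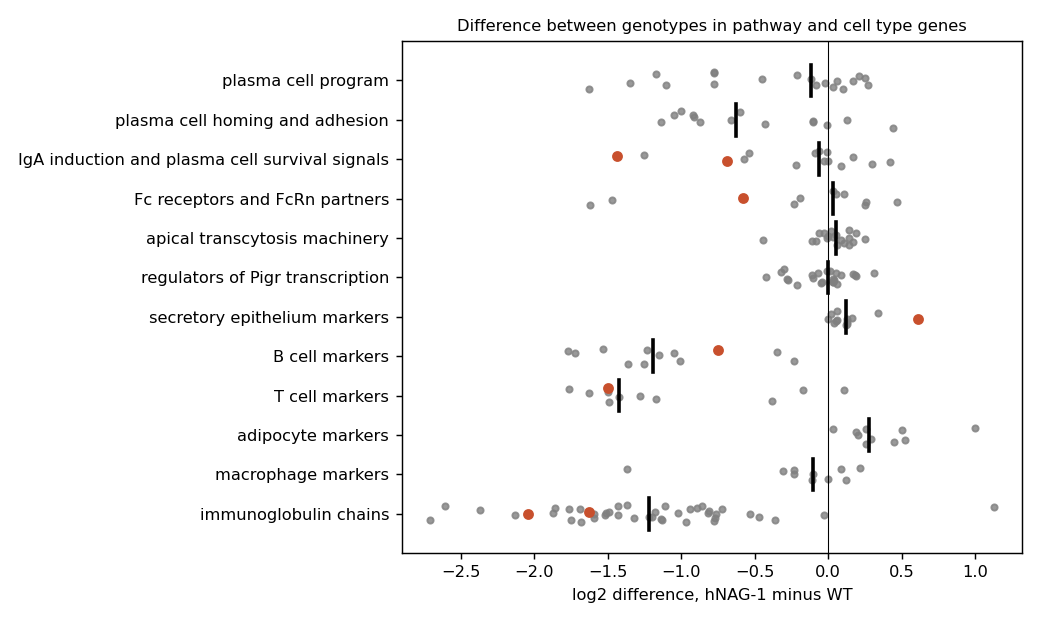
Log2 difference, hNAG-1 minus WT, of each gene of the lists (for immunoglobulin chains, each probe); orange points have an unadjusted p under 0.05 and black bars are list medians. Medians of the B cell (-1.19), T cell (-1.42) and immunoglobulin (-1.22) lists lie well to the left of those for transcytosis (0.05) and epithelium (0.12), and no gene passed adjustment.

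The transcripts closest to Pigr and Igj across the 9 arrays were of different kinds. Among 23085 probes well above background on every array, those with the highest Pearson r to Pigr were Vps36 (r = 0.964), Npc2 (0.939), Cpeb4 (0.915), BC031781 (0.911) and Tmem106b (0.904). Vps36 is a subunit of the ESCRT machinery of endosomes and Npc2 a cholesterol-binding protein of lysosomes. For Igj A_51_P150710, among 23084 probes, the closest were L22886 (r = 0.984), NAP107273-1 (0.982), ENSMUST00000076933 (0.981), Igh-VJ558 A_52_P139027 (0.981) and LOC380824 (0.980). By their descriptions 4 of these are immunoglobulin heavy chain sequences, and NAP107273-1 has none. These r values are the highest of many and describe the 9 arrays, with no test.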

How the data were processed

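From each gland, 500 ng of RNA was labeled for Agilent 1-color arrays that cover the mouse transcriptome. The authors deposited scanner output of Agilent Feature Extraction (version 9.5 in the submitters' processing notes), with background-subtracted intensity for each feature and no scaling between arrays. The deposited series table equaled these values.

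Here, control features were dropped and repeat features averaged. The 75th percentile of intensity, 532.6 to 1185 across arrays, was set to 796.6 on all of them, and log2 was taken. From 59.8% to 76.1% of probes were well above background on an array. The number of arrays limits the precision. Samples were grouped by their labels. The methods of the study describe 4 WT and 5 hNAG-1 mice with each gland processed on its own, so p-values measure the spread between mice. The comparison of genotypes used limma (version 3.58.1, R version 4.3.3; lmFit and eBayes, two-sided, Benjamini-Hochberg over 41174 probes), and single probes also by exact permutation tests. The code was tested on simulated data. WT 1 was on slide 1 and hNAG-1 1 to 4 were on slide 2, with the other 4 arrays on slide 3, so slide and genotype are partly confounded.

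Members and lists were chosen with earlier results of these data known. Lists used 1 probe for each gene, that of highest mean, and covered the plasma cell program, homing, IgA induction, Fc receptors, transcytosis, Pigr regulators, immunoglobulin chains and markers of epithelium, B cells, T cells, adipocytes and macrophages. Genes were named by a rule: all member probes, in each list those passing adjustment or otherwise the largest rise and fall, and set defining genes. Cr2, Cd2, Fcamr, Aldh1a2, Pou2af1, Cd27, Sec11c, Fkbp11, Derl3 and the immunoglobulin probes singled out were named after their values were seen. Names are those of the array design. Members and immunoglobulin probes were taken by name alone. For the other lists, a probe was dropped where RefSeq gave its sequence record to another gene, and added where RefSeq gave it to a listed gene. Probes whose record RefSeq did not hold kept their name unchecked. Alternatives changed scaling, normalization, background correction, filters, weights, blocks and the arrays included. Some genes that the rule would name are not reported here.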

Additional observations from a re-analysis of the deposited data

Results flagged for a closer look

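Sdc1 in WT 1, at a scaled intensity of 1190, stood apart from the other 3 WT arrays, which lay between 753 and 792. Its gap to the nearest array, relative to the range of the group, was above the 95% critical value of Dixon's test. This was 1 of 16 groups of arrays tested over the 8 probes, and chance alone is taken to mark about 1 in 20 groups. WT 1 was also the 1 array on slide 1, so the array and its slide cannot be told apart.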

How the results depend on the processing

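Of the 8 probes, 0 had an unadjusted p under 0.05 in limma in every alternative save 2: Ccr10 alone passed with slide as a fixed block (log2 difference 1.91, unadjusted p = 0.0306) and with a replicate block (-0.90, unadjusted p = 0.0309), a count of 1 in each. Its adjusted p in limma was 0.532 and 0.305. The fixed block sets hNAG-1 5 alone against the 3 WT arrays of slide 3, of which 2 were not well above background, and assumes that the lone array varies like the others. The sign of Ccr10 also turned on slide 3 alone (1.91) and with normexp background correction (0.09). Pigr was at -0.06 with slide as a fixed block and on slide 3 alone, Sdc1 at -0.02 with no scaling and Fcgrt at -0.14 without WT 1, while both Igj probes, Ccl28 and Prdm1 kept their sign in all alternatives run. The cause was not tested. With single arrays left out, the log2 difference ranged from -2.32 to -0.46 and from -2.61 to -0.41 for the Igj probes, 0.06 to 0.32 for Pigr, 0.15 to 1.05 for Ccl28, -0.90 to -0.10 for Ccr10, -0.14 to 0.34 for Fcgrt, -0.58 to -0.19 for Prdm1 and 0.06 to 0.28 for Sdc1. Replicate numbers did not pair the samples: same-numbered arrays deviated together with correlations of 0.28, -0.20, -0.14 and -0.31.

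Of all probes, the count with an unadjusted p under 0.05 was 2308, and it was 1983 with the test named in the methods, 6270 with array weights, 3687 with median scaling, 1058 with normexp, 5448 with the replicate block, 3723 on slide 3 alone and 1163 to 5924 with single arrays left out, highest without hNAG-1 5. After adjustment the count was 1, and it was 138 with slide as a fixed block, 0 with array weights, median scaling, no scaling, normexp, quantile normalization, the replicate block, slide 3 alone and the test named in the methods, and 0 to 215 with single arrays left out, 215 without hNAG-1 5. The count among the pathway genes was 5, and it was 9 with array weights or the replicate block, 3 with quantile normalization, 2 with slide as a fixed block or slide 3 alone and 2 to 14 with single arrays left out, 14 without WT 1, 9 without hNAG-1 4 or hNAG-1 5 and 2 without hNAG-1 2 or hNAG-1 3. The median of all probes was 0.20 with median scaling and -0.16 with no scaling, and list medians near 0 followed it. Signal over background limits Ccr10, Prdm1 and Cd40lg.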

Other observations

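All 10 adipocyte genes were higher in hNAG-1, with a median log2 difference of 0.28 and 0 at an unadjusted p under 0.05 in limma. Retn, the adipocyte hormone resistin, had the largest difference, 1.00 on the log2 scale (SE 0.48, adjusted p = 0.661 in limma). Averaged over the list, WT 1 was lowest, at -1.01 relative to the mean of all arrays, and WT 4 was highest, at 0.40. Without WT 1 the median was 0.07. Of 10 macrophage genes 3 were higher and 7 lower, with a median of -0.11 (-0.50 with slide as a fixed block, -0.41 without WT 1 and 0.06 without WT 2) and 0 at an unadjusted p under 0.05, from -1.37 (SE 1.56) for the scavenger receptor Marco, which ranged over 198-fold between arrays, to 0.22 (SE 0.58) for Adgre1. Their mean was highest in hNAG-1 4 (1.21) and WT 2 (0.81), which were also the brightest arrays for Prdm1 and Mzb1.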
